A study of Mus musculus with 55 samples.

Results

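The amino acid and vitamin transporters described here are 9 genes of mouse fat: Slc7a8, Slc7a10, Slc7a2, Slc7a6, Slc38a1, Slc38a2, Slc1a3, Slc1a5 and Slc5a6. They are 9 of the 31933 genes in the count tables, found by symbol, and 9 of 9 passed the filter on low counts in every fit. The samples were 55 RNA sequencing libraries from male C57BL/6NRj mice aged 10 weeks. For 4 weeks the mice had drunk water with corticosterone (GC), their chief glucocorticoid hormone, or with placebo (Ctrl), in housing at 13 °C (CT) or at 22 °C (RT). Areas were cut out by laser capture microdissection from 3 fat depots, the brown one between the shoulder blades (iBAT) and the white ones around the gonads (goWAT) and under the skin (scWAT). The iBAT groups held 5 GC_CT, 5 Ctrl_CT, 5 GC_RT and 3 Ctrl_RT libraries. For goWAT there were 5 GC_CT, 5 Ctrl_CT, 5 GC_RT and 4 Ctrl_RT libraries, and for scWAT 4 GC_CT, 5 Ctrl_CT, 5 GC_RT and 4 Ctrl_RT. The genes were chosen by name, with differences in expression between groups of these same libraries in view, and no record says which comparison put each gene on the list. Fold changes and adjusted p-values below come from fits over all genes and say where each transporter stands in these libraries, and they are not independent support for any of them.

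Sequencing depth differed between libraries, with 8622178 to 56450653 counts in scWAT, 12310822 to 53121372 in goWAT and 14043773 to 35790654 in iBAT. Nothing in the labels says which libraries came from the same animal or how the areas were chosen, so p-values measure the spread between these libraries only. Brown adipocyte markers (Ucp1, Cidea, Dio2 and 5 others) summed to at least 5194 CPM, the read count scaled to the size of its library, in every iBAT library, and to at most 1928 CPM in goWAT and 3475 CPM in scWAT. RNA of other cells was uneven. Macrophage markers (12 genes) summed to 12999.7 and 8826 CPM in scWAT GC_RT replicates 2 and 3 and to 530 and 5399.7 CPM in iBAT Ctrl_RT replicate 1 and GC_RT replicate 5. These are called macrophage-rich, after an earlier analysis and by no fixed limit: iBAT GC_RT 4, which is not among them, had 497 CPM, close to Ctrl_RT 1, and the goWAT libraries had 695 to 2712 CPM. The muscle-rich iBAT libraries are Ctrl_RT 3, Ctrl_CT 4 and GC_CT 4, with muscle markers (8 genes) at 319, 359 and 879 CPM. In scWAT these markers reached 2374 CPM in GC_RT 2 and 535 CPM in Ctrl_RT 1. The Krt18-rich libraries are scWAT Ctrl_CT 3 and GC_CT 3, 4 and 5, the last 3 with epithelial markers (6 genes) at 44.7, 194 and 252 CPM, and those rich in the epididymal gene Crisp1 are goWAT GC_RT 5, Ctrl_CT 1 and Ctrl_CT 4. The Ucp1-rich libraries are goWAT GC_CT 1 and GC_RT 1, with brown adipocyte markers at 1928 and 1336 CPM. Last, goWAT GC_RT 2 and 4, doubted for quality in an earlier analysis of these libraries, had the fewest counts of that depot, and white adipocyte markers (8 genes) reached 250034 CPM in replicate 2. In tissue RNA, fewer cells of a type and less transcript per cell cannot be told apart.

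Amino acids and water-soluble vitamins cross the cell membrane through solute carriers. Some members of the SLC7 family, among them the products of Slc7a8, Slc7a10 and Slc7a6, work as exchangers bound to a heavy chain, the product of Slc3a2. The SLC1 and SLC38 families and the vitamin carrier of Slc5a6 use the sodium gradient to bring their substrates in. In fat cells, glutamine, glutamate and serine feed nitrogen and carbon metabolism. Biotin and pantothenate are cofactors, or the precursors of cofactors, of enzymes that make and burn fatty acids, and lipoate is a cofactor of other enzyme complexes.

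With corticosterone, Slc5a6 fell in all 3 depots at both temperatures, 3.12- to 7.30-fold. It encodes the sodium-dependent multivitamin transporter, which carries biotin, pantothenate and lipoate. Slc7a8, which encodes the large neutral amino acid exchanger LAT2, rose in both white depots at both temperatures, 2.30- to 4.95-fold, and fell in iBAT at 13 °C. No other member passed the edgeR test in any comparison of corticosterone with placebo.

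Both genes lie on the minus strand, Slc5a6 at chr5:31036036-31048924 and Slc7a8 at chr14:54722209-54781946 on GRCm38. The sequences below are parts of the 250 bases upstream of a start site, taken from RefSeq (GRCm38.p6), and the bases nearest the start site are left out. They are shown because these are the 2 members with the changes above. Capitals mark the GC box GGGCGG on either strand. The Slc5a6 stretch is chr5:31048673-31048751, upstream of a RefSeq start site but inside the span of the gene above and opposite the first coding exon of Atraid, and the Slc7a8 stretch is chr14:54781947-54782136.
Slc5a6: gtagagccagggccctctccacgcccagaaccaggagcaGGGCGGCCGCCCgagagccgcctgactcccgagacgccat
Slc7a8: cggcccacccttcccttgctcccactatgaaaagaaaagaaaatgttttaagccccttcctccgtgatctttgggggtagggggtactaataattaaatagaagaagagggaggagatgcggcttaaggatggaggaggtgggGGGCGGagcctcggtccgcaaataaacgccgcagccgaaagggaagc
The promoter table had windows for 6 of the 9 members, each of the 250 bases before a start site, and the GC box on either strand was in 32.7% of the 32851 windows of that length. The full window of the Slc5a6 start site above held 3 GC boxes, that of its other start site 4, and that of Slc7a8 1. The palindromic glucocorticoid receptor motif, AGAACA and TGTTCT with 3 bases of any kind between them, was in 0 of their windows and in 0.00913% of all windows, counting both strands, which says only that these letters are not in these windows.

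In goWAT at 22 °C, Slc5a6 stood at 25.9, 18.6, 18.7, 15.2 and 13.7 CPM in the GC_RT libraries, against 96.7, 132, 134 and 175 CPM in Ctrl_RT. The highest GC_RT library was below the lowest Ctrl_RT library, and the means were 18.4 ± 4.70 and 134 ± 31.9 CPM (SD, n = 5 and 4). The log2 fold change was -2.87 ± 0.26 (SE, as for all fold changes here), with an adjusted p = 1.40e-06 in the quasi-likelihood test of edgeR, adjusted over all genes by the Benjamini-Hochberg method, as is every adjusted p below. By p-value it was gene 2 of the comparison, and a gene is called here at an adjusted p below 0.05. At 13 °C the GC_CT libraries had 31.8, 20.7, 26.1, 20.7 and 22.2 CPM and the Ctrl_CT libraries 73.3, 132, 64.3, 86.8 and 133 CPM. Again no library of one group reached the range of the other, and the log2 fold change was -2.01 ± 0.24 (adjusted p = 9.71e-05). Without GC_RT replicates 2 and 4 the value at 22 °C was -2.80 (adjusted p = 8.64e-05).

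In scWAT the pattern of Slc5a6 was alike. GC_RT libraries had 20.7, 8.50, 8.36, 20.98 and 13.2 CPM, against 95.6, 91.4, 78.7 and 109.5 CPM in Ctrl_RT libraries, a log2 fold change of -2.71 ± 0.26 (adjusted p = 4.03e-06). GC_CT libraries had 26.8, 22.7, 25.3 and 23.0 CPM, against 105, 83.8, 77.3, 81.5 and 68.9 CPM in Ctrl_CT libraries, a log2 fold change of -1.77 ± 0.26 (adjusted p = 0.000670). The groups were apart at both temperatures. Of the GC_RT libraries, the macrophage-rich replicates 2 and 3 were the lowest pair with 8.50 and 8.36 CPM. Without them the log2 fold change at 22 °C was -2.36 (adjusted p = 1.16e-05), and without GC_RT 2 and Ctrl_RT 1, high in muscle markers, it was -2.53 (adjusted p = 2.87e-05). Without the libraries rich in Krt18, an epithelial keratin gene, it was -1.65 at 13 °C. That leaves 1 GC_CT library, assumed to vary like the rest, so the fit cannot test the call.

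Slc5a6 fell in iBAT as well. At 22 °C it stood at 10.6, 11.5, 5.43, 13.8 and 7.95 CPM in GC_RT libraries, against 67.7, 84.0 and 25.3 CPM in Ctrl_RT libraries, and the log2 fold change was -2.58 ± 0.40 (adjusted p = 0.00259). At 13 °C it stood at 4.86, 16.03, 7.93, 6.26 and 13.2 CPM in GC_CT libraries, against 40.0, 23.0, 29.4, 38.3 and 20.02 CPM in Ctrl_CT libraries, and the log2 fold change was -1.64 ± 0.36 (adjusted p = 0.0329). The groups did not overlap at either temperature, though Ctrl_RT rests on 3 libraries, of which replicate 3 was well below the others. Markers of other cells moved between the groups at 22 °C: the 5 Schwann and nerve markers summed to 107 to 168 CPM in GC_RT, against 38.9 to 56.4 CPM in Ctrl_RT (1 of 5 called higher), and the 8 white adipocyte markers had a median log2 fold change of -1.04. Their part in the fall was not tested. The iBAT call at 13 °C was the least firm: without the muscle-rich libraries the log2 fold change was -1.40 (adjusted p = 0.128), and the call was lost in 7 of the 18 fits that left out 1 iBAT library, at adjusted p-values of 0.052 to 0.104 (without Ctrl_CT 1, 3 or 4 or GC_CT 1, 3, 4 or 5).

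The fall of Slc5a6 passed no test of a difference between depots or temperatures. The test of a difference between the 3 depots gave an adjusted p = 0.878 at 13 °C and 0.888 at 22 °C. The interaction, which subtracts the effect of GC at 22 °C from its effect at 13 °C, was 0.94 ± 0.53 (log2 scale) in iBAT, 0.86 ± 0.34 for goWAT and 0.94 ± 0.35 for scWAT (adjusted p = 0.791, 0.285 and 0.403). The 3 estimates were positive, a smaller fall at 13 °C, with unadjusted 95% intervals of -0.10 to 1.99, 0.18 to 1.53 and 0.24 to 1.64. Slc5a6 overlaps Atraid, on the other strand, by 613 bases, and these libraries mark no strand. Atraid passed in none of the 6 comparisons of GC with Ctrl, with log2 fold changes of -0.65 to 0.08.

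**Figure D1:**
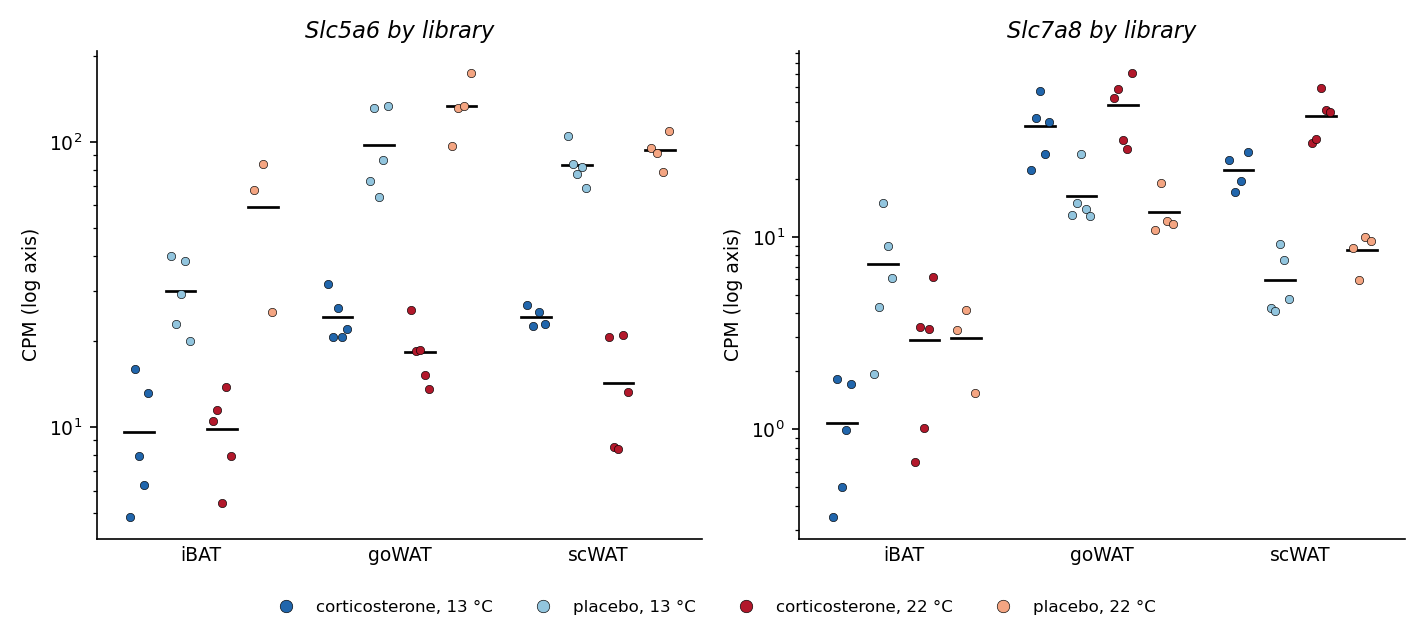
Each point is 1 library, with its CPM (read count scaled to library size, log axis) of Slc5a6 in one panel and Slc7a8 in the other; within each depot the groups run GC at 13 °C, placebo at 13 °C, GC at 22 °C and placebo at 22 °C, and black lines are group means. Slc5a6 is lower with GC in every depot, while Slc7a8 is higher with GC in goWAT and scWAT and lower in iBAT at 13 °C.

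Slc7a8 exchanges neutral amino acids, the branched-chain and aromatic ones among them, and moves thyroid hormone as well. Its rise was clearest in scWAT. At 22 °C the GC_RT libraries had 30.7, 32.3, 59.0, 45.6 and 44.3 CPM, against 8.70, 5.98, 10.00 and 9.47 CPM in Ctrl_RT libraries, a log2 fold change of 2.31 ± 0.29 (adjusted p = 7.12e-05). At 13 °C the GC_CT libraries had 24.9, 17.1, 19.5 and 27.4 CPM, against 4.25, 4.13, 9.20, 7.57 and 4.74 CPM in Ctrl_CT libraries, a log2 fold change of 1.89 ± 0.28 (adjusted p = 0.000585). Every GC library was above every placebo library at both temperatures. Macrophage markers summed to 821 to 12999.7 CPM in GC_RT, against 596 to 1641 CPM in Ctrl_RT, with 3 of 12 called higher. Without the macrophage-rich replicates 2 and 3 the rise was 2.24 (adjusted p = 0.000222), and without GC_RT 2 and Ctrl_RT 1, high in muscle markers, 2.45 (adjusted p = 0.000409). Brown adipocyte markers moved with the groups as well, at 69.4 to 186 CPM in GC_RT, against 629 to 3117 CPM in Ctrl_RT, and at 132 to 587 CPM in GC_CT, against 947 to 3475 CPM in Ctrl_CT. Of 7 such markers tested, 6 were called lower at 22 °C and 4 at 13 °C, and their part in the changes of Slc7a8 and Slc5a6 in scWAT was not tested.

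In goWAT at 22 °C, Slc7a8 had 52.8, 58.5, 31.7, 28.5 and 70.9 CPM in GC_RT libraries, against 10.8, 19.1, 12.03 and 11.7 CPM in Ctrl_RT libraries. The lowest of the GC_RT libraries was above the highest of Ctrl_RT, and the log2 fold change was 1.85 ± 0.33 (adjusted p = 0.00162). In this comparison 2 of 4 tested muscle markers were called higher, at summed levels of 34.0 to 279 CPM in GC_RT, against 15.7 to 195 CPM in Ctrl_RT. Of the T and B cell markers 2 of 8 were called lower (1.296 to 3.80 CPM in GC_RT, against 4.10 to 9.61 CPM in Ctrl_RT), as was 1 of 6 endothelial markers, and their part in the changes of Slc7a8 and Slc5a6 was not tested. At 13 °C the gene had 22.2, 41.5, 57.5, 26.8 and 39.3 CPM in GC_CT libraries, against 13.0, 14.9, 26.9, 14.0 and 12.8 CPM in Ctrl_CT libraries. These groups overlapped through Ctrl_CT replicate 3, and the log2 fold change was 1.1996 ± 0.30 (adjusted p = 0.0415). That call was lost without the Crisp1-rich libraries, at 1.04 (adjusted p = 0.231), and in 11 of the 19 fits that left out 1 library, at adjusted p-values of 0.0523 to 0.131 (without Ctrl_RT 1, 3 or 4, GC_RT 2, Ctrl_CT 1, 2, 4 or 5, or GC_CT 2, 3 or 5).

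In iBAT at 13 °C, Slc7a8 went the other way, at low levels. The GC_CT libraries had 0.352, 1.83, 0.503, 0.994 and 1.72 CPM, from 5 to 50 reads each, and the Ctrl_CT libraries 1.94, 4.31, 15.1, 8.91 and 6.07 CPM, from 36 to 259 reads each. All 5 GC_CT libraries were below the lowest Ctrl_CT library, though 2 of them by little, and the log2 fold change was -2.73 ± 0.63 (adjusted p = 0.0446). Leaving out 1 library ended the call in 13 of 18 fits, at adjusted p-values of 0.051 to 0.146, all but those without Ctrl_RT 3, GC_RT 1, 3 or 5 or Ctrl_CT 1. Limma gave an adjusted p = 0.0563, and leaving out the muscle-rich libraries gave -2.60 (adjusted p = 0.181). At 22 °C the iBAT libraries had 0.678, 3.40, 1.01, 3.31 and 6.21 CPM in GC_RT, against 3.29, 4.16 and 1.54 CPM in Ctrl_RT. These overlapped, with a log2 fold change of -0.03 ± 0.68 (adjusted p = 0.992), and the interaction in iBAT was -2.69 ± 0.94 (adjusted p = 0.765).

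The GC effect on Slc7a8 at 13 °C differed between the 3 depots, with an adjusted p = 4.23e-05 in the fit of all 55 libraries, the smallest p-value of the 22245 genes tested. It was called in 12 of 12 alternative fits, at adjusted p-values of 2.81e-10 to 0.00895, among them those without the libraries rich in markers of other cells. In the fit without the Krt18-rich libraries, scWAT GC_CT replicate 1 was alone in its group. At 22 °C the same test of the depots gave an adjusted p = 0.0843. It was the 1 member called at 13 °C (all genes: 0.234%), and 0 were called by edgeR at 22 °C (0.742%), where 2 members had an unadjusted p below 0.05 and DESeq2 and limma called 2 each.

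Counts of called members stand beside the share of all genes called in the same comparison. In GC_CT against Ctrl_CT, 2 of 9 members were called in iBAT (all genes: 0.728%), 2 in goWAT (1.45%) and 2 in scWAT (2.59%). In GC_RT against Ctrl_RT, 1 was called in iBAT (0.664%), 2 in goWAT (5.98%) and 2 in scWAT (6.93%). Slc5a6 was called in each comparison and Slc7a8 in each but iBAT at 22 °C. Groups did not overlap for 2 members in iBAT at 13 °C (all genes: 2.65%), 2 in goWAT (4.79%) and 5 in scWAT (8.53%), and at 22 °C for 2 in iBAT (7.57%), 2 in goWAT (8.32%) and 2 in scWAT (8.49%). Since the genes were listed with these results known, nothing is read from the difference between these shares. The interaction called 0 of 9 members in each depot, where all genes were called at 0% in iBAT, 0.461% for goWAT and 0% for scWAT. At an unadjusted p below 0.05, edgeR's interaction test counted 1098 genes in iBAT (2 members), 2707 in goWAT (1 member) and 1838 in scWAT (2 members), and both DESeq2 and limma called 0 members in each depot.

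**Figure D2:**
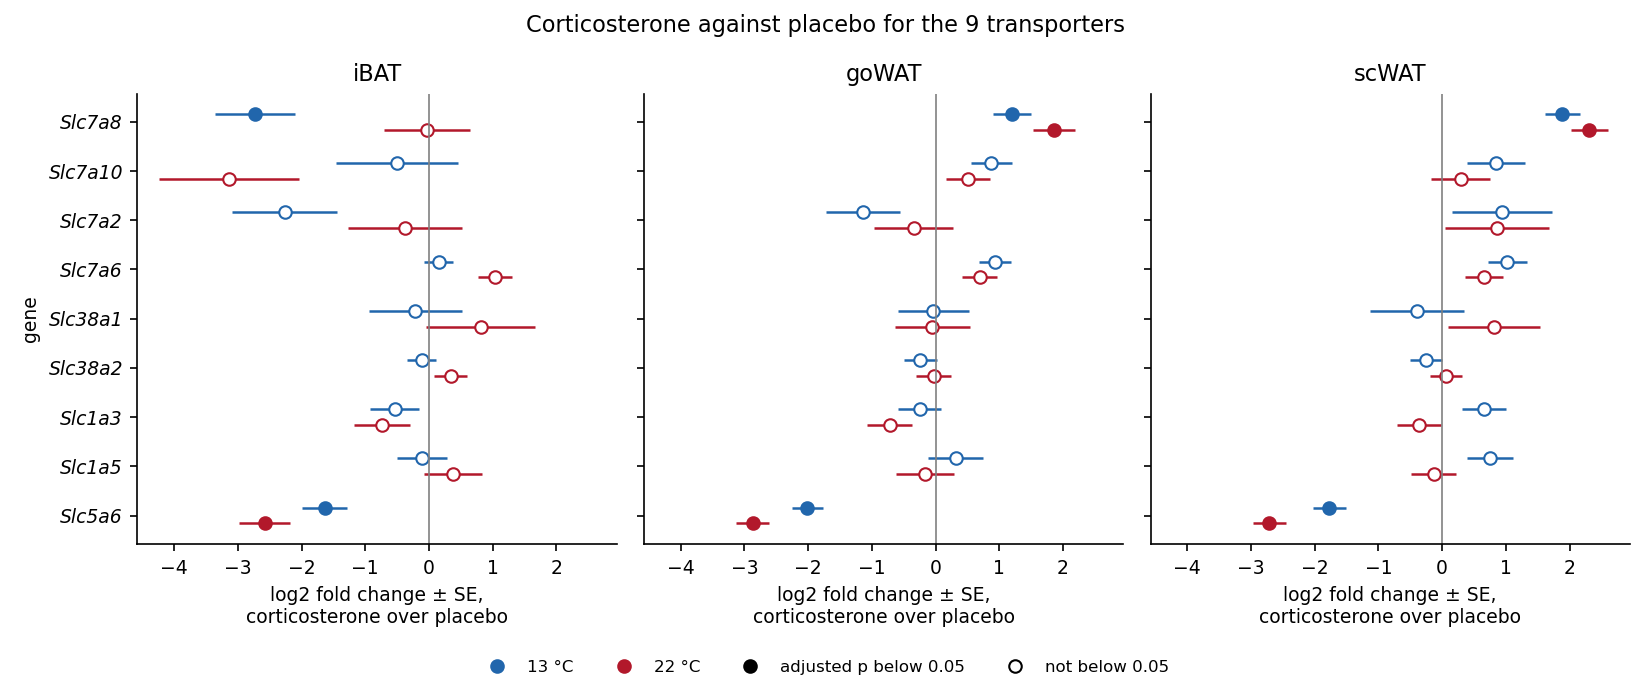
Log2 fold change of GC over placebo (± SE) for the 9 transporters in iBAT, goWAT and scWAT, blue at 13 °C and red at 22 °C; filled points have an adjusted p below 0.05 in edgeR. Slc5a6 lies left of 0 in all 6 comparisons and is filled in each, and Slc7a8 lies right of 0 in the white depots and left of it in iBAT at 13 °C.

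The other members of the SLC7 family were not called with GC in edgeR. Slc7a6 (chr8:106168857-106198706, plus strand) encodes y+LAT2, which exchanges cationic for neutral amino acids together with the heavy chain. In iBAT at 22 °C it had 40.8, 45.1, 31.2, 42.6 and 28.5 CPM in GC_RT libraries, against 18.9, 16.5 and 19.5 CPM in Ctrl_RT libraries. The groups did not overlap, but the log2 fold change of 1.04 ± 0.27 did not pass the test (adjusted p = 0.0782). The same held at 13 °C in goWAT, with 53.1, 31.7, 24.7, 19.5 and 20.1 CPM in GC_CT libraries, against 14.3, 18.1, 14.3, 12.7 and 18.7 CPM in Ctrl_CT libraries, and a log2 fold change of 0.93 ± 0.26 (adjusted p = 0.0697). The highest of these GC_CT values is in the library rich in Ucp1, and without the Ucp1-rich libraries the log2 fold change was 0.61 (adjusted p = 0.172). In scWAT at 13 °C Slc7a6 had 53.8, 38.1, 31.4 and 27.4 CPM in GC_CT libraries, against 18.8, 11.9, 21.3, 18.9 and 21.8 CPM in Ctrl_CT libraries, with a log2 fold change of 1.02 ± 0.30 (adjusted p = 0.0708). DESeq2 called these 3 differences, and limma called those in iBAT and scWAT (adjusted p = 0.00883 and 0.0122). EdgeR called the one in iBAT without GC_CT replicate 1, the one in goWAT without GC_RT replicate 4, and the one in scWAT without Ctrl_RT replicate 1, without Ctrl_RT 1 and GC_RT 2 together (adjusted p = 0.0290) and with the 2 groups alone. In the remaining comparisons with placebo the log2 fold changes of Slc7a6 were 0.15 in iBAT at 13 °C, 0.69 in goWAT at 22 °C and 0.66 in scWAT at 22 °C. Slc3a2, the heavy-chain partner, had log2 fold changes of -0.11 to 0.55 over the 6 comparisons and passed in none.

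Slc7a10 (chr7:35186385-35201114, plus strand) encodes Asc-1, an exchanger of small neutral amino acids such as serine and glycine that is known as a surface marker of white adipocytes. In goWAT it stood at 225, 264, 355, 369 and 599 CPM in GC_CT libraries, against 139.98, 156, 234, 253 and 203 CPM in Ctrl_CT libraries, which overlapped (log2 fold change 0.88 ± 0.33, adjusted p = 0.182). In scWAT at 13 °C it stood at 277, 181, 202 and 409 CPM in GC_CT libraries, against 174, 162, 166, 167 and 73.7 CPM in Ctrl_CT libraries. There the groups were just apart, with a log2 fold change of 0.85 ± 0.46 that did not pass (adjusted p = 0.403). In iBAT the gene varied widely within groups. GC_CT libraries had 3.24, 33.2, 3.27, 1.09 and 2.65 CPM, against 29.1, 6.01, 2.96, 19.95 and 3.12 CPM in Ctrl_CT libraries. At 22 °C iBAT GC_RT libraries had 1.91, 4.5998, 1.81, 16.6 and 2.81 CPM, against 72.2, 67.0 and 6.59 CPM in Ctrl_RT libraries, and the groups overlapped through Ctrl_RT replicate 3. The log2 fold change there, -3.14 ± 1.10, was the largest in size of the 9 members in that comparison and did not pass (adjusted p = 0.249), while limma called it (adjusted p = 0.0106). Limma called the goWAT difference at 13 °C as well (adjusted p = 0.0177). Slc7a10 overlaps Lrp3, on the other strand, by 1088 bases, so their reads cannot be told apart there. Lrp3 was itself called lower in scWAT at 22 °C, with a log2 fold change of -1.30 ± 0.30 (adjusted p = 0.0110).

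Slc7a2 (chr8:40862396-40922308, plus strand) encodes a carrier of arginine and lysine that is known from activated macrophages. It was one of the 2 rarest members, at 0.0424 to 5.91 CPM over the 55 libraries. In iBAT at 13 °C it had 0.141, 0.483, 0.0839, 0.0994 and 0.620 CPM in GC_CT libraries, against 0.108, 1.53, 0.698, 1.74 and 2.95 CPM in Ctrl_CT libraries. These overlapped, and the log2 fold change was -2.26 ± 0.82 (adjusted p = 0.288). Its log2 fold changes in the other 5 comparisons with placebo were -1.14 to 0.94, and none passed.

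Slc1a5 (chr7:16781340-16798274, plus strand) encodes ASCT2, an exchanger best known as a route for glutamine, and was the most abundant member. In goWAT at 22 °C it had 11309, 5087, 4488, 1351 and 1938 CPM in GC_RT libraries, against 4535, 3463, 8073 and 5604 CPM in Ctrl_RT libraries. The GC_RT values spanned both sides of the Ctrl_RT values (log2 fold change -0.16 ± 0.45, adjusted p = 0.866), and the highest was in the library rich in Ucp1. In scWAT at 13 °C the GC_CT libraries had 5515, 5152, 5558 and 6038 CPM, against 4879.6, 4256, 2509, 3076 and 1819 CPM in Ctrl_CT libraries. All 4 GC_CT libraries were above the highest Ctrl_CT library, and the log2 fold change of 0.75 ± 0.36 did not pass the test (adjusted p = 0.316). In iBAT it had 400.1 to 937 CPM in GC_CT libraries, against 406 to 905 CPM in Ctrl_CT libraries, and 502 to 2799 CPM in GC_RT libraries, against 593 to 1145 CPM in Ctrl_RT libraries.

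Slc1a3 (chr15:8634124-8710764, minus strand) encodes the glutamate and aspartate carrier GLAST. Its log2 fold changes with GC were -0.74 in iBAT at 22 °C, -0.72 in goWAT at 22 °C and 0.66 in scWAT at 13 °C, the largest in each depot, and 0 of its 6 comparisons passed in edgeR (lowest adjusted p = 0.237). Limma called the first of these (adjusted p = 0.0437). Over libraries it ran from 28.5 to 530 CPM, lowest in iBAT GC_CT and highest in scWAT GC_CT. Slc1a3 overlaps Gm37310, on the same strand, by 2968 bases, and how reads there were counted is not given. Gm37310 passed in no comparison of GC with Ctrl in the white depots. Its log2 fold changes there were -0.40 to 2.89, the highest in scWAT at 13 °C (adjusted p = 0.0885).

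Slc38a2 (chr15:96687392-96699730, minus strand) encodes SNAT2, a sodium-coupled carrier of small neutral amino acids whose gene is known to respond to amino acid shortage in cultured cells. It passed in none of the 6 comparisons, with log2 fold changes of -0.26 to 0.34 and 29.6 to 122 CPM over all libraries. Its close relative Slc38a1 (chr15:96571418-96642913, minus strand), which encodes SNAT1, was rare, at 0.168 to 12.9 CPM. In scWAT at 22 °C Slc38a1 had 0.585, 12.9, 12.8, 1.21 and 3.49 CPM in GC_RT libraries, against 4.91, 3.69, 2.08 and 3.46 CPM in Ctrl_RT libraries. The high pair of GC_RT libraries is the macrophage-rich replicates 2 and 3: with them the log2 fold change was 0.81 ± 0.73 (adjusted p = 0.561), and without them -0.99 (adjusted p = 0.512). The highest Slc38a1 value of iBAT, 5.53 CPM, was also in its macrophage-rich GC_RT library, replicate 5. The other macrophage-rich iBAT library is in Ctrl_RT, where the gene reached at most 1.43 CPM. In goWAT the highest value, 10.6 CPM, was in GC_RT replicate 4, not called macrophage-rich.

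**Figure D3:**
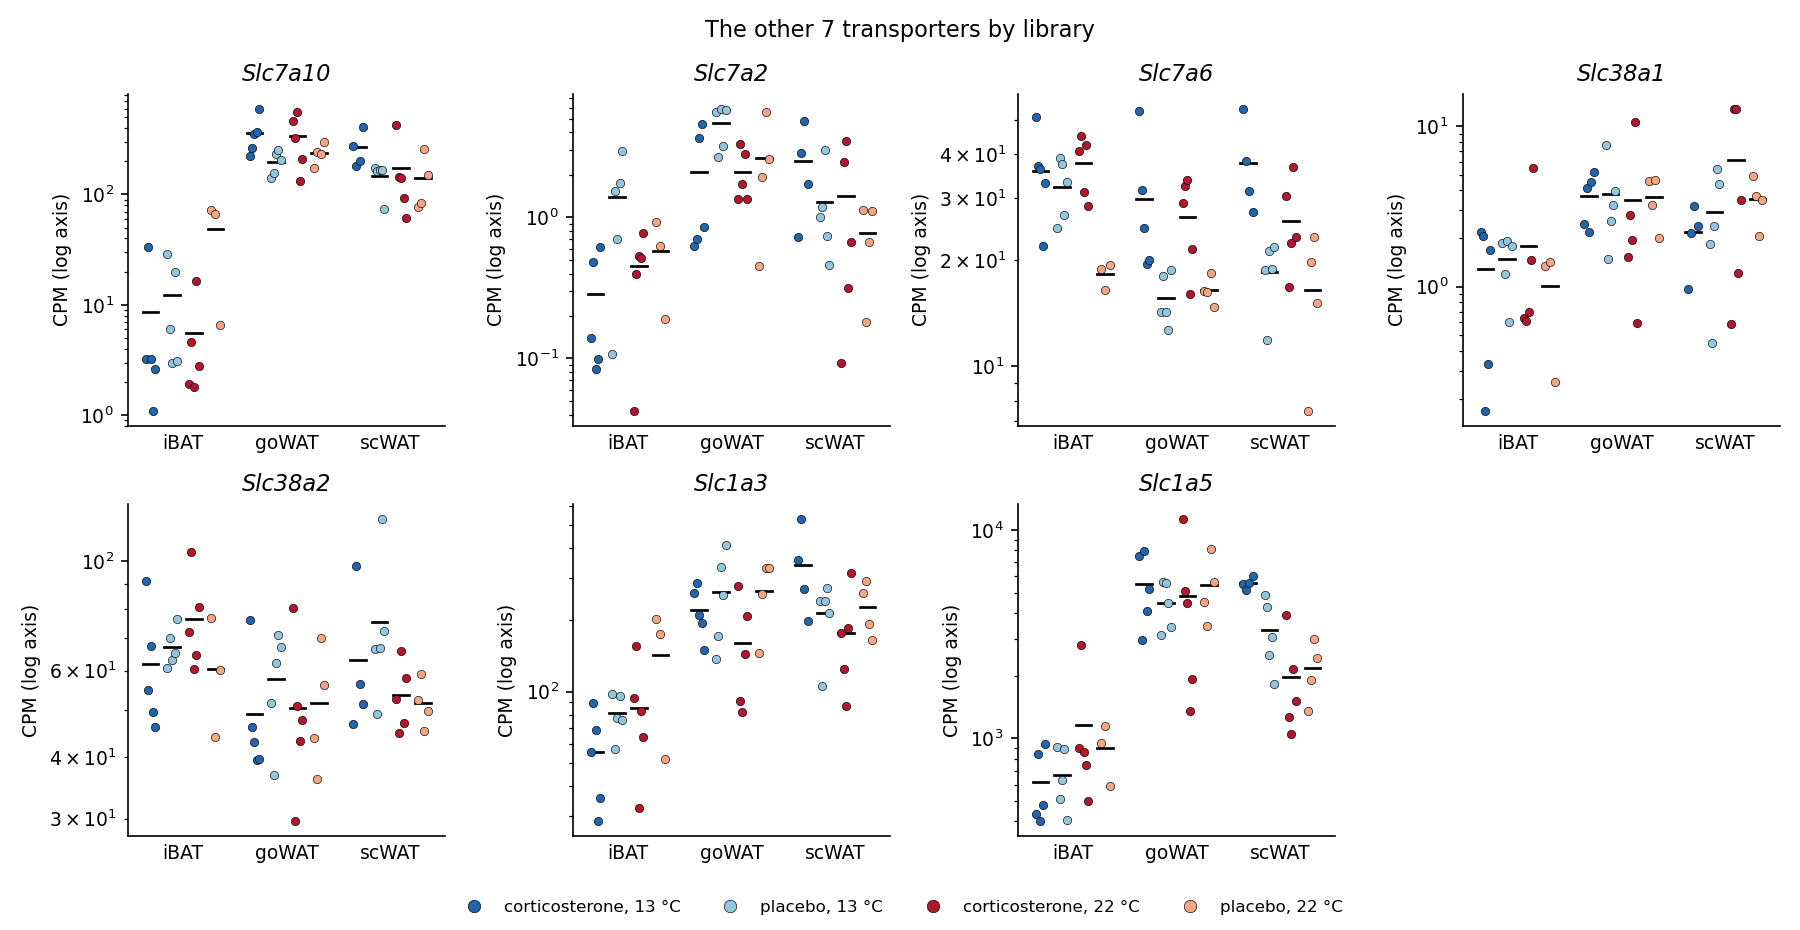
CPM per library (log axis) of the other 7 transporters in the 12 groups, in the same order of groups within each depot, with black lines at the group means. GC and placebo groups overlap except for Slc7a6 in iBAT at 22 °C and in goWAT and scWAT at 13 °C and for Slc7a10 and Slc1a5 in scWAT at 13 °C, and Slc38a1 reaches 12.9 and 12.8 CPM in scWAT GC_RT replicates 2 and 3.

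In placebo mice, edgeR called no transporter between the housing temperatures. In Ctrl_CT against Ctrl_RT, 0 of 9 members were called in iBAT (all genes: 0.0175%), goWAT (0.312%) and scWAT (0%). Members with an unadjusted p below 0.05 were 2 in iBAT, 0 in goWAT and 1 in scWAT. DESeq2 called 0 in each depot, and limma called 0 in goWAT and scWAT and 4 in iBAT, Slc7a6 higher in Ctrl_CT and Slc7a10, Slc1a3 and Slc5a6 lower, at adjusted p-values of 0.0137 to 0.0431. In scWAT, where edgeR called 0 genes, 2364 genes had an unadjusted p below 0.05. Slc7a6 in iBAT had 24.6, 39.0, 37.4, 26.9 and 33.4 CPM in Ctrl_CT libraries, against 18.9, 16.5 and 19.5 CPM in Ctrl_RT libraries. Its log2 fold change of 0.82 ± 0.27 did not pass in edgeR (adjusted p = 0.362).

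Among mice given GC, the called differences between temperatures were in scWAT. In GC_CT against GC_RT, 2 of 9 members were called in scWAT (all genes: 8.18%), Slc1a5 higher and Slc7a8 lower, and 0 in goWAT (0.0149%) and iBAT (0.00583%). In goWAT 0 members and in iBAT 2 had an unadjusted p below 0.05, and DESeq2 and limma called 0 in both. Slc1a5 had 5515, 5152, 5558 and 6038 CPM in GC_CT libraries, against 3924, 1272, 1047, 2152 and 1512 CPM in GC_RT libraries, a 2.81-fold rise (log2 fold change 1.49 ± 0.36, adjusted p = 0.0196). Slc7a8 had 24.9, 17.1, 19.5 and 27.4 CPM in GC_CT libraries, against 30.7, 32.3, 59.0, 45.6 and 44.3 CPM in GC_RT libraries, a log2 fold change of -0.93 ± 0.28 (adjusted p = 0.0429). Neither gene overlapped between these groups, and nor did Slc5a6, at 24.4 ± 1.959 CPM in GC_CT and 14.3 ± 6.23 CPM in GC_RT (SD, n = 4 and 5), whose log2 fold change of 0.77 ± 0.25 did not pass in edgeR (adjusted p = 0.0616) and was called by DESeq2 and limma (adjusted p = 0.0301 and 0.00895). Such separation was found for 8.67% of all genes. The cell makeup of these groups differed: 11 of 12 macrophage markers were called lower in GC_CT and 6 of 6 epithelial markers higher. Without the macrophage-rich libraries neither call held, at 1.16 for Slc1a5 (adjusted p = 0.129) and -0.85 for Slc7a8 (adjusted p = 0.164). Leaving out the Krt18-rich ones leaves GC_CT replicate 1 alone in its group, so that fit cannot test the calls. Its log2 fold changes were 1.51 for Slc1a5 and -0.73 for Slc7a8. Of the 18 fits without 1 library, 7 lost Slc7a8 (without Ctrl_RT 3 or 4, GC_RT 3 or 4, or GC_CT 1, 3 or 4), at adjusted p-values of 0.0511 to 0.139, and those without GC_CT 3 or 4 lost Slc1a5, at 0.0589 and 0.0541.

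To set levels of different genes side by side, CPM of a scaling common to the 55 libraries were divided by the exon length in kilobases. Lengths were not corrected for the overlaps of Slc5a6 with Atraid, Slc7a10 with Lrp3 and Slc1a3 with Gm37310. How reads there were counted is not given, which limits the levels and order of these 3 members. In goWAT Ctrl_RT, Slc1a5 was far ahead with 1193 ± 433 CPM per kb (SD, n = 4), followed by Slc7a10 with 103 ± 21.6. Slc5a6 with 30.8 ± 7.11 and Slc1a3 with 28.4 ± 9.18 CPM per kb came next and did not differ beyond their spread. Slc38a2 had 5.35 ± 1.53, Slc7a6 3.30 ± 0.318 and Slc7a8 2.46 ± 0.686 CPM per kb. The lowest library of Slc38a2 was just above the highest of Slc7a6, and Slc7a6 and Slc7a8 overlapped. Slc7a2 with 0.265 ± 0.218 and Slc38a1 with 0.193 ± 0.0672 CPM per kb were the lowest and overlapped. Slc1a5 was first in every one of the 12 groups. Slc7a8 was 7th of the 9 in every placebo group and 4th in goWAT GC_CT, goWAT GC_RT and scWAT GC_RT.

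**Figure D4:**
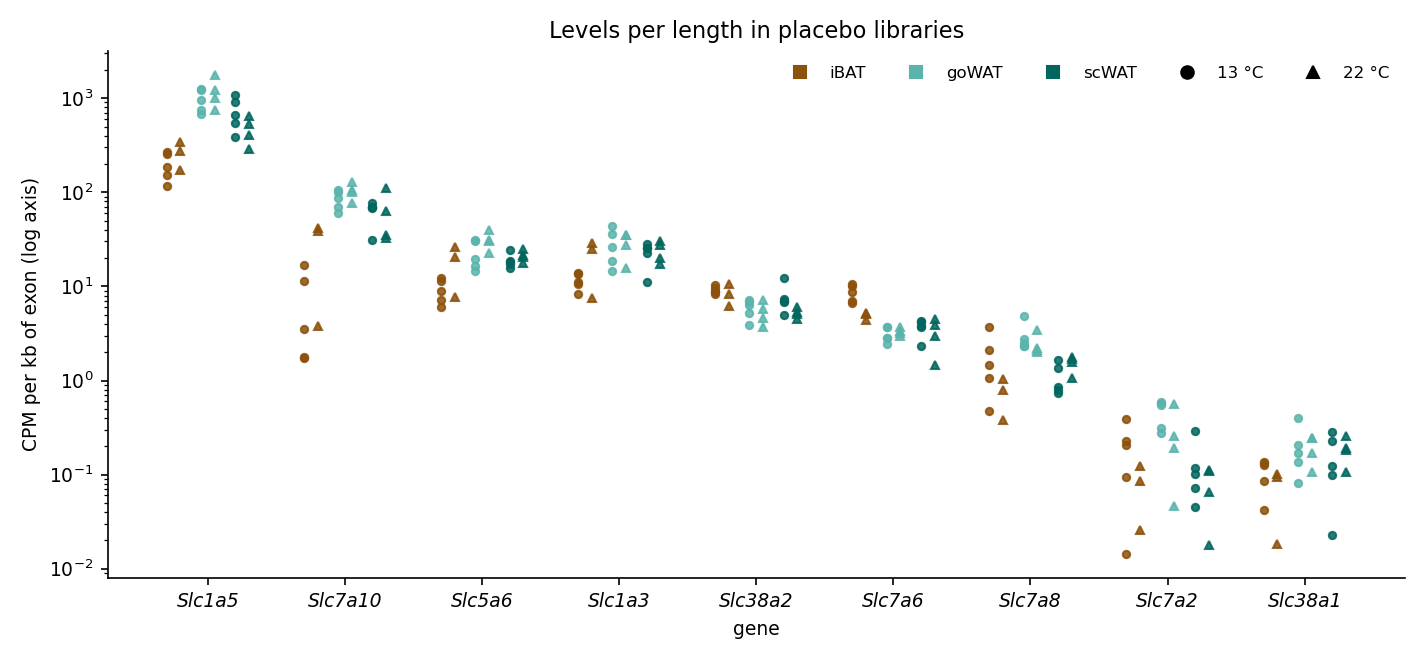
CPM per kb of exon (log axis) of the 9 transporters in the placebo libraries; colours are depots, circles 13 °C and triangles 22 °C, and genes are ordered by their mean in goWAT Ctrl_RT. Slc1a5 is highest in each depot, and Slc7a10 lies lower in most iBAT libraries than in the white depots.

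Depots were compared in placebo mice, where each depot is also its own deposited table, so that depot and table cannot be told apart. At 13 °C the comparison of iBAT with goWAT called 6 of 9 members (all genes: 36.1%), iBAT with scWAT 4 (18%) and goWAT with scWAT 1 (5.58%). At 22 °C iBAT against goWAT called 2 (14.7%), and iBAT against scWAT (2.81%) and goWAT against scWAT (4.33%) called 0 each in edgeR, with 2 members at an unadjusted p below 0.05 in both. DESeq2 and limma called 0 in the first of these and 1 in the second, Slc1a5. In these fits the median log2 fold change of all genes was -0.196 for iBAT against goWAT and -0.106 for iBAT against scWAT at 13 °C, and -0.149 for iBAT against goWAT at 22 °C.

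Slc7a10 was lower in iBAT at 13 °C, with log2 fold changes of -3.59 ± 0.73 against goWAT (adjusted p = 0.000126) and -3.17 ± 0.72 against scWAT (adjusted p = 0.00130). At 22 °C, where the iBAT libraries ran from 8.10 to 87.7 CPM in the common scaling, the differences of -1.87 ± 0.84 and -1.10 ± 0.81 did not pass (adjusted p = 0.125 and 0.530). Slc1a5 was lower in iBAT at 13 °C as well, with log2 fold changes of -2.32 ± 0.43 against goWAT (adjusted p = 3.33e-05) and -1.88 ± 0.43 against scWAT (adjusted p = 0.00131). At 22 °C its difference from goWAT was -2.18 ± 0.54 (adjusted p = 0.00346), a call lost without the libraries numbered 3 (adjusted p = 0.172). Without the macrophage-rich and muscle-rich libraries the difference was -1.84, but iBAT Ctrl_RT then holds replicate 2 alone. Slc5a6 was lower in iBAT Ctrl_CT, with log2 fold changes of -1.28 ± 0.29 against goWAT (adjusted p = 0.000497) and -1.03 ± 0.29 against scWAT (adjusted p = 0.00935, and 0.0526 without the libraries numbered 2).

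Slc7a6 had the opposite order. In iBAT Ctrl_CT it was higher by 1.47 ± 0.27 than in goWAT (adjusted p = 1.93e-05) and by 1.23 ± 0.26 than in scWAT (adjusted p = 0.000647), both called in 12 of 12 alternatives. Slc38a2 was higher in iBAT than in goWAT by 0.64 ± 0.25 (adjusted p = 0.0361) and Slc1a3 lower, with -1.27 ± 0.38 (adjusted p = 0.00691), both at 13 °C. The first of these was lost in 7 of 12 alternatives, 4 of them without the libraries numbered 1, 2, 3 or 5, and the second without those numbered 5 (adjusted p = 0.0596). Slc7a8 was higher in goWAT than in scWAT at 13 °C, by 1.46 ± 0.41 (adjusted p = 0.0259), and lower in iBAT than in goWAT at 22 °C, with -1.73 ± 0.52 (adjusted p = 0.0184). The first call did not hold without the Crisp1-rich and Krt18-rich libraries, at 1.85 (adjusted p = 0.0684). Without the macrophage-rich and muscle-rich ones the second difference was -1.28, with iBAT Ctrl_RT replicate 2 alone in its group. The first was also lost without the libraries numbered 2, 4 or 5, and the second without those numbered 2 or 3.

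The cargo of Slc5a6 is used by enzymes and carriers that were listed as 26 genes. Of these, 25 were matched by name, and the 25 were tested in each depot. They cover biotin-dependent carboxylases (Acaca, Acacb, Pcca, Pccb, Mccc1 and Mccc2), the steps from pantothenate to coenzyme A and the lipoate-bearing complexes. No pyruvate carboxylase gene is among the 25. In scWAT at 22 °C, 0 of 25 rose with GC and 7 fell, where 6.93% of all genes were called (655 of 19003 lower), and the list's median log2 fold change was -0.54, beside 0.06 over all genes. Brown adipocyte markers fell in the same comparison, 6 of 7 tested, with a median of -4.12, and their part in this count was not tested. Acacb and Acaca, the acetyl-CoA carboxylases of fatty acid oxidation control and fatty acid synthesis, had log2 fold changes of -1.998 ± 0.33 (adjusted p = 0.000744) and -1.62 ± 0.40 (adjusted p = 0.0162). Acacb stood at 89.1 ± 34.9 CPM in GC_RT and 356 ± 66.1 CPM in Ctrl_RT (SD, n = 5 and 4). Coasy and Pank1, of coenzyme A synthesis, changed by -1.30 ± 0.27 (adjusted p = 0.00456) and -2.25 ± 0.46 (adjusted p = 0.00507), and Pank3, Dlat and Lipt1 were the other 3. Without the macrophage-rich libraries 2 of 25 fell, with a median of -0.34, and without Ctrl_RT 1 and GC_RT 2, high in muscle markers, 5 fell.

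In scWAT at 13 °C, 1 of the 25 rose and 5 fell (all genes called: 2.59%), with a median of -0.29, beside 0.01 over all genes, and 4 of 7 brown adipocyte markers fell. The gene that rose was Vnn1, a pantetheinase that breaks down a product of coenzyme A, with 1.48 ± 0.35 (adjusted p = 0.0231), and those that fell were Acacb, Coasy, Dlat, Dlst and Pank3. Leaving out the Krt18-rich libraries leaves 1 GC_CT library, so no count is given for that fit. In goWAT 0 rose and 2 fell at 22 °C (all genes called: 5.98%), Coasy with -1.26 ± 0.31 (adjusted p = 0.0180) and Mccc1, a subunit of a biotin-dependent carboxylase of leucine breakdown, with -0.98 ± 0.24 (adjusted p = 0.0159), with a list median of -0.29 beside 0.05. Without the doubted GC_RT replicates 2 and 4 neither was called, and without the Ucp1-rich libraries 7 fell. At 13 °C 1 fell (all genes called: 1.45%), Pank3, with -1.22 ± 0.25 (adjusted p = 0.0166), and the list median was 0.09 beside 0.01. In iBAT edgeR called 0 of 25 at either temperature, where 0.728% of all genes were called at 13 °C and 0.664% at 22 °C. There 1 gene at 13 °C and 6 at 22 °C had an unadjusted p below 0.05, DESeq2 called 0 at both and limma 0 and 2. Between GC_CT and GC_RT in scWAT 5 of 25 were higher at 13 °C and 0 lower (all genes called: 8.18%), Acacb among them with 1.45 ± 0.33 (adjusted p = 0.0153). Without the macrophage-rich libraries 0 were called, and in the fit without Ctrl_RT 1 and GC_RT 2 the count was 1.

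**Figure D5:**
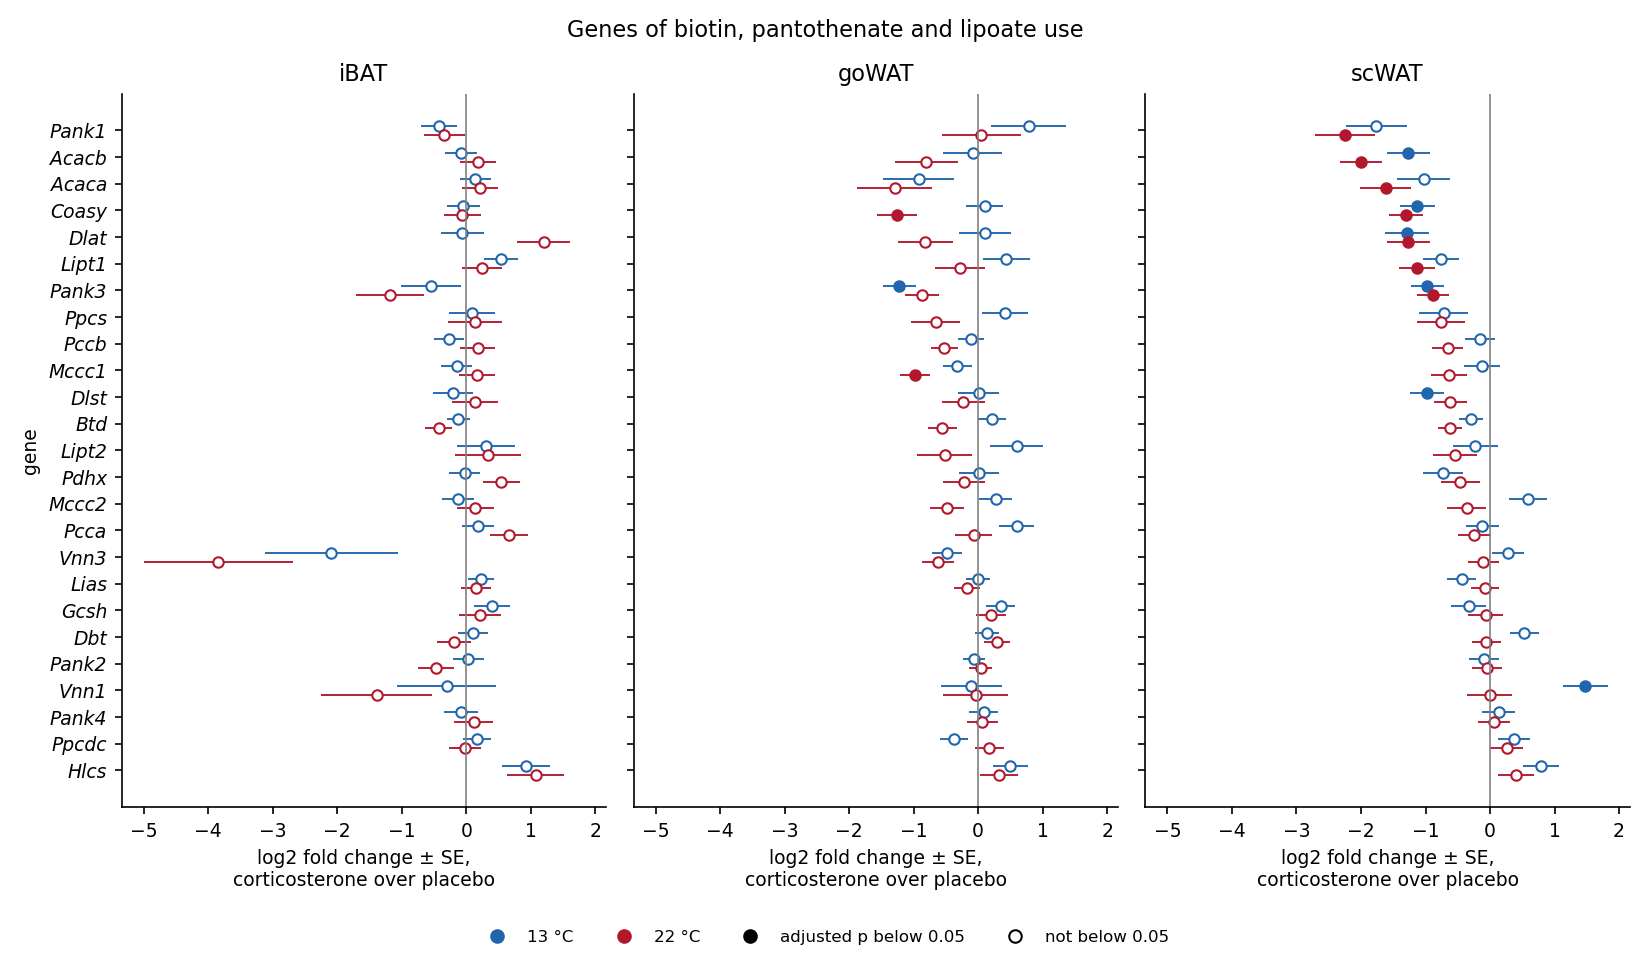
Log2 fold change of GC over placebo (± SE) of 25 genes that use biotin, pantothenate or lipoate, in iBAT, goWAT and scWAT, blue at 13 °C and red at 22 °C; filled points have an adjusted p below 0.05 in edgeR. In scWAT 7 genes are filled left of 0 at 22 °C and 5 at 13 °C, with Vnn1 filled right of 0 at 13 °C, and none is filled in iBAT.

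Other vitamin carriers, 19 genes of which 14 to 17 were tested, moved singly. Slc19a1, the reduced folate carrier, rose in iBAT at 22 °C to 83.5 ± 12.9 CPM in GC_RT, against 20.9 ± 12.4 CPM in Ctrl_RT, and at 13 °C to 56.4 ± 9.26 CPM in GC_CT, against 20.95 ± 5.33 CPM in Ctrl_CT (log2 fold changes 2.00 ± 0.32 and 1.43 ± 0.26, adjusted p = 0.00290 and 0.00794). It was the 1 of 14 called in iBAT at each temperature (all genes: 0.664% at 22 °C and 0.728% at 13 °C). Slc19a3, a thiamine carrier, was called higher at 22 °C in goWAT (3.45 ± 0.97, adjusted p = 0.0374) and scWAT (3.78 ± 1.11, adjusted p = 0.0425), the 1 of 17 and 1 of 16 called there (all genes: 5.98% and 6.93%). It was rare, with 0.600 ± 0.301 CPM in goWAT GC_RT and 0.0536 ± 0.0398 CPM in Ctrl_RT, and 0.845 ± 0.665 CPM in scWAT GC_RT and 0.0592 ± 0.0982 CPM in Ctrl_RT. In scWAT at 13 °C the 1 of 16 called (all genes: 2.59%) was Slc25a32, the mitochondrial folate carrier, which was lower (-1.08 ± 0.26, adjusted p = 0.0276). In goWAT at 13 °C edgeR called 0 of 17 (all genes: 1.45%), with 6 at an unadjusted p below 0.05, 2 called by DESeq2 and 4 by limma.

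Other amino acid transporters were listed as 45 genes, of which 24 to 34 were tested. At 22 °C 1 of 24 was called in iBAT (all genes: 0.664%), 4 of 34 in goWAT (5.98%) and 2 of 29 in scWAT (6.93%). At 22 °C Slc43a1, a carrier of large neutral amino acids, fell in all 3 depots, with log2 fold changes of -3.76 ± 0.85 in iBAT (adjusted p = 0.0425), -1.54 ± 0.33 in goWAT (adjusted p = 0.00643) and -1.13 ± 0.30 in scWAT (adjusted p = 0.0264). In goWAT 2 of 34 rose, the cystine exchanger gene Slc7a11 (1.94 ± 0.49, adjusted p = 0.0198) and Slc7a5 (1.44 ± 0.40, adjusted p = 0.0325), which encodes LAT1, the relative of LAT2. There 2 fell, Slc43a1 and the taurine carrier gene Slc6a6 (-1.29 ± 0.26, adjusted p = 0.00376). In scWAT 0 of 29 rose and 2 fell, Slc36a2 (-1.42 ± 0.29, adjusted p = 0.00424), a proton-coupled carrier, and Slc43a1. At 13 °C Slc43a2, the close relative of Slc43a1, was the 1 of 24 called in iBAT (all genes: 0.728%) and rose (1.47 ± 0.27, adjusted p = 0.00895). EdgeR called 0 of 34 in goWAT (1.45%) and 0 of 29 in scWAT (2.59%). There 6 and 4 had an unadjusted p below 0.05, DESeq2 called 1 in each, and limma 7 and 2.

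Of 29 enzymes of glutamine, glutamate, arginine and serine metabolism, 27 were tested in scWAT, where 6.93% of all genes were called at 22 °C and 2.59% at 13 °C. At 22 °C 2 rose there, Oat, which makes glutamate semialdehyde from ornithine (1.10 ± 0.20, adjusted p = 0.00189), and Phgdh, the first step of serine synthesis (1.53 ± 0.45, adjusted p = 0.0451), and 2 fell, Nos3, which encodes endothelial nitric oxide synthase (-1.69 ± 0.29, adjusted p = 0.000969), and Ass1 (-1.61 ± 0.40, adjusted p = 0.0167), which makes argininosuccinate. At 13 °C 2 rose, Oat and the proline oxidase gene Prodh (1.59 ± 0.41, adjusted p = 0.0404), and 2 fell, Ass1 and Psph, of serine synthesis (-1.08 ± 0.27, adjusted p = 0.0316). Elsewhere Prodh rose in iBAT at 22 °C (1.61 ± 0.37, adjusted p = 0.0438) and Nos3 fell in goWAT at 22 °C (-1.66 ± 0.26, adjusted p = 0.000732), the 1 of 25 and 1 of 28 called there (all genes: 0.664% and 5.98%). Endothelial markers (6 genes) summed to 220.1 to 471 CPM in goWAT GC_RT, against 415 to 612 CPM in Ctrl_RT, and to 265 to 563 CPM in scWAT GC_RT, against 379 to 504 CPM in Ctrl_RT, with 1 of 6 called lower in each, and their part in the fall of Nos3 was not tested. Among 13 genes of amino acid sensing, Ddit3, a stress-induced transcription factor, rose in goWAT and scWAT at 22 °C (1.51 ± 0.33 and 1.204 ± 0.27, adjusted p = 0.00754 and 0.00932), Trib3 rose in scWAT at 13 °C (1.70 ± 0.39, adjusted p = 0.0184) and Ddit4, an inhibitor of mTORC1, fell in iBAT at 13 °C (-2.84 ± 0.56, adjusted p = 0.0140). Each was the 1 of 13 called in its comparison. All genes were called at 5.98% in goWAT and 6.93% in scWAT at 22 °C, and at 2.59% in scWAT and 0.728% in iBAT at 13 °C.

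Across the 55 libraries, the genes most like each transporter were taken from 8157 or 8158 protein-coding genes by Pearson's r of log2(CPM + 0.5), after each depot's mean was taken out. The libraries share treatment groups, depth and cell makeup, so these values are a description. Slc5a6 was most like Angptl2 (r = 0.905), an angiopoietin-like secreted protein, Nr1d2 (0.890), which encodes the clock repressor REV-ERBβ, and Nrg4 (0.876), a secreted growth factor of fat. Slc7a8 was most like Sulf1 (0.714), Timp4 (0.685) and Adamts5 (0.662), which act on the extracellular matrix. Slc7a10 was most like Cyp2e1 (0.807), Trf (0.788) and Gpt2 (0.786), Slc7a6 like Trp53inp2 (0.795), and Slc1a5 like Adpgk (0.857), which encodes an ADP-dependent glucokinase. Slc1a3 was most like Nedd4 (0.799), Slc38a2 like Fastkd1 (0.697) and Slc7a2 like Rhobtb1 (0.547). For Slc38a1 the 3 were Abr (0.689), Arhgdib (0.682) and Adgre1 (0.667), the last of which is one of the macrophage markers above.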

How the data were processed

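The authors deposited raw counts of reads for 31933 Ensembl genes, each depot in a table of its own. The submitters' processing notes name FastQC, the aligner GSNAP (2018-07-04) with the mm10 genome, and featureCounts (1.6.3). For the annotation release, the strand setting and reads with several matches, the choice is not given in the sources used here. Per the labels' protocols the libraries were made with SMART-Seq2, which marks no strand. Gene IDs were matched to GENCODE M21 names (31894 matched, 9 of 9 transporters). None of 101 pairs of libraries within groups held identical counts.

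Each depot was fitted on its own in edgeR 4.0.16 (R 4.3.3): filterByExpr (10 counts as the minimum per library in enough libraries to fill the smallest group, and 15 over all), TMM scaling, 1 mean per group, robust quasi-likelihood tests and Benjamini-Hochberg adjustment over all genes, with 0.05 as the threshold. A joint fit of the 55 libraries gave the comparisons between depots, 23 comparisons in all. Standard errors were derived from the F statistic. Biological variation between libraries of a group (edgeR's coefficient) was 50.5% for iBAT, 49.99% for goWAT and 47.8% for scWAT. Alternatives were RLE size factors, no low-count filter, DESeq2 1.42.0, limma 3.58.1 with voom and sample weights, a replicate block, the 2 groups compared alone, and leaving out each library or libraries rich in other cells. The code was tested on simulated counts. Members, lists and the libraries left out were chosen with earlier results of these data known. The text names the 9 members, up to 4 called genes per list and comparison by adjusted p, and up to 3 genes most like each member. No set test was run on the lists.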

Additional observations from a re-analysis of the deposited data

Results flagged for a closer look

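Each of the 99 sets made of 1 transporter and 1 group of 4 or 5 libraries was searched for a library apart from the rest of its group by Dixon's criterion, and 11 held one. Chance alone gives about 1 in 20 for values that follow a normal distribution. CPM were searched without a log and their distribution was not checked, so 11 is not set against that rate. For Slc7a8 these were goWAT Ctrl_CT replicate 3 with 26.9 CPM, the library that made the goWAT groups overlap at 13 °C, and goWAT Ctrl_RT replicate 2 with 19.1 CPM. For Slc7a10 they were iBAT GC_CT replicate 2 with 33.2 CPM, iBAT GC_RT replicate 4 with 16.6 CPM, scWAT GC_RT replicate 1 with 430.2 CPM and, as the lowest of its group, scWAT Ctrl_CT replicate 5 with 73.7 CPM. Slc38a1 stood apart in goWAT GC_RT replicate 4 with 10.6 CPM, a library doubted for its quality, and in the macrophage-rich iBAT GC_RT replicate 5 with 5.53 CPM. The others were Slc38a2 in the Ucp1-rich goWAT GC_CT replicate 1 with 76.2 CPM, Slc1a5 in iBAT GC_RT replicate 2 with 2799 CPM and Slc7a2 in scWAT Ctrl_CT replicate 3 with 2.99 CPM.

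The effect of corticosterone on Slc7a8 at 13 °C differed between depots by the test of that difference in the joint fit (edgeR adjusted p = 4.23e-05). The separate fits of each depot gave log2 fold changes of -2.73 ± 0.63 in iBAT, 1.1996 ± 0.30 in goWAT and 1.89 ± 0.28 in scWAT.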

How the results depend on the processing

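No alternative reversed a called value. Of 4482 values of single transporters under alternatives, 4287 kept their side of the threshold within the spread between libraries, 71 lost a call, 38 gained one and 86 values without a call moved beyond that spread. Counts of called transporters are given with the edgeR count in brackets. DESeq2 called 2 (1) for GC in iBAT at 22 °C, 1 (0) for goWAT against scWAT in Ctrl_RT and 2 (0) for the GC effect between depots at 22 °C. It also gained Slc7a6 for GC at 13 °C in goWAT and scWAT (adjusted p = 0.0226 and 0.0241). For GC_CT against GC_RT in scWAT it gained Slc5a6 (adjusted p = 0.0301). Limma called 4 (1) for GC in iBAT at 22 °C, 1 (2) for GC in iBAT at 13 °C, 4 (0) for Ctrl_CT against Ctrl_RT in iBAT, 4 (2) for GC_CT against GC_RT in scWAT, 1 (0) for goWAT against scWAT in Ctrl_RT, 4 (2) for iBAT against goWAT in Ctrl_RT, 2 (1) for goWAT against scWAT in Ctrl_CT and 2 (0) for the GC effect between depots at 22 °C. Further gains in limma were Slc7a10 for GC in goWAT at 13 °C (adjusted p = 0.0177) and Slc7a6 in scWAT at 13 °C (adjusted p = 0.0122). For iBAT against scWAT in Ctrl_CT limma gained Slc1a3 (adjusted p = 0.0122). For iBAT against goWAT in Ctrl_CT the gains were Slc7a8 and Slc7a2 (adjusted p = 0.0255 and 0.02675). With a replicate block the count was 1 (2) for GC in goWAT at 13 °C and 1 (2) for GC_CT against GC_RT in scWAT, in both through Slc7a8 (adjusted p = 0.0568 in goWAT and 0.0525 in scWAT). In Ctrl_CT it was 5 (4) for iBAT against scWAT, with Slc1a3 gained, and 7 (6) for iBAT against goWAT, with Slc7a8 gained (adjusted p = 0.0384 and 0.0444). Deviations of libraries with the same number correlated at medians of 0.000770 in iBAT, 0.000811 in goWAT and -0.0258 in scWAT. Across depots the median was 0.0598, with 21 of 53 pairs above 0.1, against -0.0248 and 42 of 202 for unlike numbers. Not every pair was above 0.1 and the labels tie no number to an animal, so the numbers were not taken as pairs, and shared animals across depots cannot be told from these values.

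Without muscle-rich libraries the count for GC in iBAT at 13 °C was 0 (2), and without Crisp1-rich ones that for goWAT at 13 °C was 1 (2). Without Krt18-rich ones 1 scWAT GC_CT library is left, so no count is given for comparisons with that group. GC_CT against GC_RT in scWAT gave 0 (2) without the macrophage-rich libraries and in a fit of the 2 groups alone. Without scWAT Ctrl_RT 1 and GC_RT 2, high in muscle markers and chosen after seeing the data, GC in scWAT at 13 °C gave 3 (2), with Slc7a6 gained. Also chosen after seeing the data, a joint fit without Crisp1-rich and Krt18-rich libraries gave 0 (1) for goWAT against scWAT in Ctrl_CT. The joint fit without macrophage-rich and muscle-rich libraries, chosen likewise, leaves iBAT Ctrl_RT replicate 2 alone, so no count is given. Leaving out 1 library, or 1 replicate number in the joint fit, gave 1 to 2 for GC in iBAT at 22 °C, 0 to 2 in iBAT at 13 °C, 1 to 3 in goWAT at 13 °C, 0 to 4 for GC_CT against GC_RT in scWAT, 0 to 2 for iBAT against goWAT in Ctrl_RT (0 without number 3) and 0 to 1 for goWAT against scWAT in Ctrl_CT (0 without number 2, 4 or 5). The cause of these losses was not tested. Slc7a2, Slc38a1 and, in iBAT, Slc7a8 had few reads per library, which limits what their comparisons can show.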
